A study of Mus musculus with 24 samples.

Results

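Sialyltransferases are the Golgi enzymes that cap glycan chains with sialic acid, and 10 of their genes were followed in gastrocnemius muscle and heart of mice that differ in Cmah and dystrophin. The genes are St3gal1, St3gal2, St3gal3, St3gal4, St3gal5, St3gal6, St6gal1, St6galnac2, St6galnac4 and St6galnac6. They were found through the array annotation, by taking every probe set whose annotation gave a single gene symbol that is 1 of the 10 names or an older name of it. This gave 22 probe sets of the 45037 on the array that are not controls, and 10 of the 10 genes had at least 1. Each gene was read from its probe set with the highest mean, and the other probe sets are given where they differ.

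The study profiled 12 male mice aged 2 months on 24 Affymetrix arrays, 1 array of gastrocnemius and 1 of heart from each animal, with 3 animals in each of 4 genotypes. Wild type (WT) mice carried intact Cmah and Dmd. Cmah KO mice carried a Cmah mutation modelled on the human gene, which leaves them without the sialic acid Neu5Gc. The mdx mice lacked dystrophin through a Dmd mutation, and Cmah KO mdx mice lacked both. The labels give the strain C57BL/6J for WT and Cmah KO and C57BL6/10J for mdx and Cmah KO mdx, so each comparison of dystrophin-deficient with dystrophin-positive mice also crosses the strain label. Both losses were present in every cell of the animals, since these are germline alleles, and each array used labelled cDNA amplified from 25 ng of total RNA of whole muscle or heart. In such bulk RNA, fewer cells of a type and less RNA per cell cannot be told apart.

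Sialyltransferases take the activated donor CMP-sialic acid and attach its sugar to the end of a growing chain. The ST3Gal enzymes and St6gal1 join it to a galactose, in alpha2,3 and alpha2,6 linkage respectively, and the ST6GalNAc enzymes join it to N-acetylgalactosamine. Cmah acts upstream, turning CMP-Neu5Ac into CMP-Neu5Gc, so its loss changes which sialic acid the enzymes transfer rather than removing the donor. Sialylated glycans sit on muscle surface glycoproteins, including dystroglycan, and on gangliosides of the muscle membrane.

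For 7 of the 10 genes RefSeq gave promoter windows, 10 in all, each running from 250 bases before to 50 bases after a transcription start (build GRCm38.p6). They are shown for 3 genes that were lower in heart, St3gal6, St3gal3 and St6galnac4, and for St3gal4, whose difference ran the other way. St3gal6 has 2 annotated starts, at chr16:58524204-58524503 and chr16:58523377-58523676, both on the minus strand. The St3gal3 window is chr4:118134897-118135196 on the minus strand, that of St6galnac4 chr2:32586828-32587127 on the plus strand and that of St3gal4 chr9:35116815-35117114 on the minus strand. The sequences run 5′ to 3′ along the gene, and capitals mark every match, on either strand, to the E-box CANNTG, the site of muscle and other basic helix-loop-helix factors, to CCAAT and to the GC box GGGCGG.
St3gal6 upstream start: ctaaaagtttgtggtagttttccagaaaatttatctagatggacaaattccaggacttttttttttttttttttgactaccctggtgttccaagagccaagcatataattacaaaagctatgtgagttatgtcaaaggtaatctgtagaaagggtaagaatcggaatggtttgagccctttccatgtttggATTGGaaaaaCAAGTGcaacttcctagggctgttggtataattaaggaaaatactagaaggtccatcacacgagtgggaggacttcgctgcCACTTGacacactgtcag
St3gal6 downstream start: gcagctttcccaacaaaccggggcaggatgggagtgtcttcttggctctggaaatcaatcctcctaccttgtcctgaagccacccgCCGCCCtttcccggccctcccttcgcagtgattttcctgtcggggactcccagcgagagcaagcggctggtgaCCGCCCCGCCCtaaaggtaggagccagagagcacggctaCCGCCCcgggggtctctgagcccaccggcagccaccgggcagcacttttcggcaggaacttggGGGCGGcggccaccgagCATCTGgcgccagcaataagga
St3gal3: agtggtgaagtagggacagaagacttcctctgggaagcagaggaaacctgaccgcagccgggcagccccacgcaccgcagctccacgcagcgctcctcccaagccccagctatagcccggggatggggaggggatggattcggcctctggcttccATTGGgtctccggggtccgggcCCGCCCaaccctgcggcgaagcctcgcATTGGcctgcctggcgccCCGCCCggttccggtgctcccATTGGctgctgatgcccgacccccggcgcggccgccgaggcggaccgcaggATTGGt
St6galnac4: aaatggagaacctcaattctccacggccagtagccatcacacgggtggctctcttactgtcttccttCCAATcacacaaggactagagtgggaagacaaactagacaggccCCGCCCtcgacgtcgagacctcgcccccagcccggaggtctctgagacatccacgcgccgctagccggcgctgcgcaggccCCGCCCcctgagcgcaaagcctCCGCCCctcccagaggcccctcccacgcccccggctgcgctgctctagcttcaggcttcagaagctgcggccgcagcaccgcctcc
St3gal4: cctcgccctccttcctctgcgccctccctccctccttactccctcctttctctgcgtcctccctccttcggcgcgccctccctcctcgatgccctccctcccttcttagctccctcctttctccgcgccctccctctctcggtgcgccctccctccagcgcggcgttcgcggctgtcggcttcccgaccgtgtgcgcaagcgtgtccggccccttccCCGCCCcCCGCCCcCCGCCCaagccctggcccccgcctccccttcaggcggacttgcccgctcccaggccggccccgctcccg

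The St3gal6 windows differed from each other: the upstream one had a GC content of 38.7%, 2 E-boxes, 1 CCAAT and no GC box, whereas the downstream one had 64.7%, 1 E-box and 5 GC boxes, 2 of which overlapped. The St3gal3 window held 4 CCAAT matches and 2 GC boxes, that of St6galnac4 1 CCAAT match and 3 GC boxes, and that of St3gal4 3 GC boxes alone. None of these 3 windows held an E-box. Among all 32851 RefSeq mouse promoter windows of the same length, 72.3% held an E-box, 37.4% CCAAT and 35.7% a GC box, and the median GC content was 52.7%. These matches describe letters only.

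Before any result, 2 heart arrays stood apart from the other 10: Cmah KO replicate 3 and Cmah KO mdx replicate 2. Their mean correlation with the other heart arrays was 0.543 and 0.837, against 0.909 to 0.925 for the other 10, and their Gapdh control probe sets at the 3′ end exceeded those at the 5′ end by 4.29 and 4.43 on the log2 scale, against 0.44 to 1.6. Within the remaining arrays, 1 animal of each genotype had the largest Gapdh difference in gastrocnemius, and the same 4 animals also had the largest in heart apart from the 2 arrays named above. In gastrocnemius the difference was 0.764 to 1.02 in these 4 animals and 0.363 to 0.709 in the other 8. In heart it was 0.976 to 1.6 in the 4 and 0.44 to 0.537 in 6 others. Results that rest on the 2 heart arrays are given with and without them. The markers matched the labelled tissues: 10 of 10 skeletal fibre markers were lower and 10 of 10 cardiomyocyte markers higher in heart (limma, adjusted p below 0.05). Dmd, the gene of dystrophin, was at 9.99 to 10.3 on the log2 scale in dystrophin-positive gastrocnemius and at 7.54 to 8.59 in dystrophin-deficient gastrocnemius. In heart it was at 8.01 to 10.1 and 8.16 to 9.12, so that the genotypes overlapped there. The Cmah probe set did not separate the genotypes (in gastrocnemius 5.73 to 6.8 in Cmah KO and 6.46 to 8.11 in Cmah KO mdx, against 6.98 to 7.89 in WT and 6.24 to 7.71 in mdx), and where its probes lie against the mutated part of the gene is not given in the sources used here.

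The levels of some of the enzymes were separated by the Gapdh difference of the animal. This was so for 3 of 19 member probe sets in gastrocnemius and 6 of 19 in heart, all lower in the 4 animals. Across the array, 19% of 29518 and 33.4% of 29421 probe sets did not overlap, in either direction. Those lower in the 4 animals were 3790 of the 29518 and 5946 of the 29421. The shares of members and of all probe sets were not compared by a test. St6galnac6, which adds alpha2,6-linked sialic acid to gangliosides, was at 8.55 to 8.81 (log2 intensity) in the gastrocnemius of the 4 animals and at 9.56 to 10.3 in the other 8. In heart it was at 8.63 to 9.16 in the 4 and at 9.91 to 10.5 in 6 others, and at 6.92 and 7.25 on the 2 arrays that stood apart. Apart from those 2, each genotype thus held 1 low array in each tissue, and the sets did not overlap in either.

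St3gal1, which sialylates the core 1 O-glycan, was at 5.59 to 7.03 in gastrocnemius of the 4 animals and 7.19 to 8.01 in the others, and in heart at 5.18 to 6.58 against 6.85 to 7.32. St3gal4, which acts on N- and O-glycans with galactose ends, was at 3.2 to 3.91 in heart of the 4 animals and at 4.91 to 6.03 in the 6. The main probe sets of the 7 genes other than St6galnac6, St3gal1 and St3gal4 overlapped in both tissues, but some of their other probe sets did not. The second St6galnac4 probe set was at 5.535 to 6.688 against 6.714 to 7.879 in gastrocnemius, and at 5.236 to 5.832 against 6.343 to 6.933 in heart. In heart, the second St3gal3 probe set was at 3.671 to 5.503 against 6.027 to 6.621. A further St3gal6 probe set was at 8.024 to 8.452 there, against 8.947 to 9.125. The 4 animals are 1 of each genotype, and the part of the Gapdh difference in the comparisons of genotypes was not tested beyond the alternatives given beside them.

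**Figure D1:**
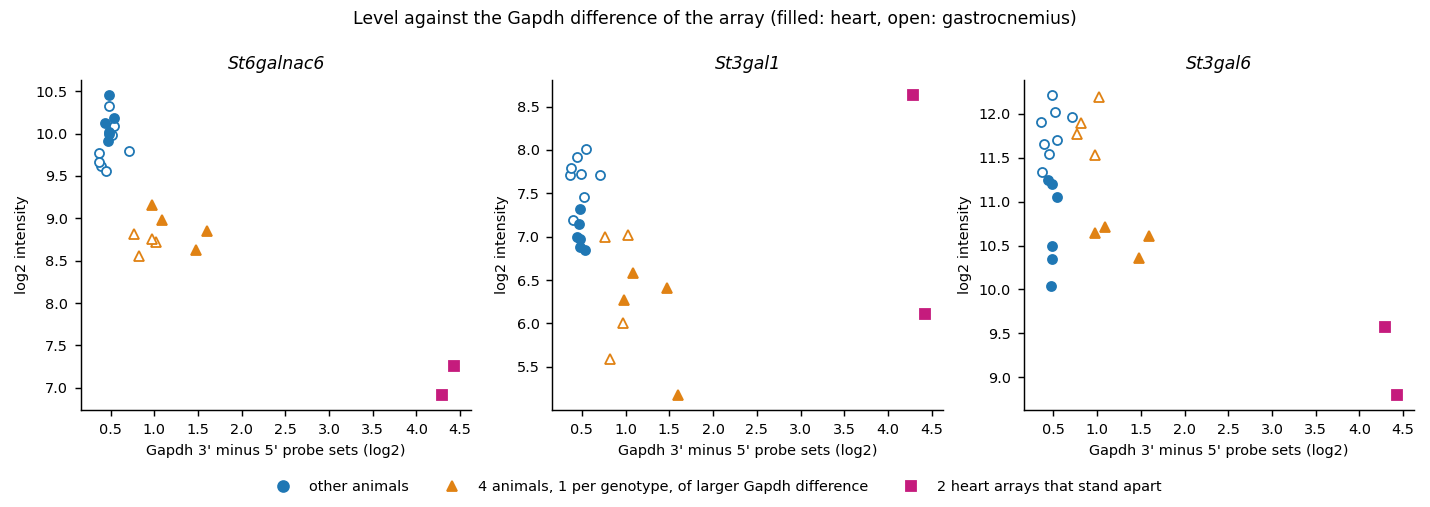
Level of St6galnac6, St3gal1 and St3gal6 (vertical axis, log2 intensity) on each of the 24 arrays against the log2 difference of its 3′ and 5′ Gapdh control probe sets. Filled symbols are heart and open ones gastrocnemius. The 4 animals of larger difference lie at 8.55 to 9.16 for St6galnac6, below every other animal except the 2 heart arrays that stand apart (6.92 and 7.25). For the main St3gal6 probe set, the one shown, they overlap the others within each tissue.

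Heart and gastrocnemius were compared first, within animals. St3gal6, St3gal2, St3gal3, St3gal5 and St6galnac4, 5 of the 10 genes, were lower in heart by 1.65-fold to 2.64-fold. St3gal4 was called higher, but it passed the filter on dim probe sets through heart alone, so no fold is given for it. Counted over probe sets, that of St3gal4 included, 11 of 20 were called in limma with the animal as a random block and Benjamini-Hochberg adjustment at 0.05. The background was high, since 28.1% of the 31070 probe sets tested were called (3854 higher and 4882 lower in heart). The median of the 10 genes was -0.60 on the log2 scale, beside -0.04 over all probe sets. Without the 2 heart arrays, 16 of 20 were called, for 8 genes, against a background of 51.3%. These calls include St3gal4 and a dim probe set of St3gal2 that passed the filter through gastrocnemius alone, where it was higher.

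St3gal6 (probe set 1449079_s_at, chromosome 16) makes alpha2,3-sialylated lactosamine, the base of selectin ligands. Its log2 intensity ran from 11.3 to 12.2 in gastrocnemius, with a median of 11.8, and from 8.8 to 11.2 in heart, with a median of 10.6. The lowest gastrocnemius array was thus above the highest heart array, and heart was lower in 12 of 12 animals. For this gene and those below, the share of all probe sets with such a separation or sign is not given, beside 28.1% called. The difference was -1.39 ± 0.20 (log2, SE; 2.62-fold lower, adjusted p = 1.3e-05 by limma). It was -1.16 ± 0.11 without the 2 heart arrays (adjusted p = 1.1e-07), and between -1.48 and -1.25 on leaving out any single array.

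St3gal2 (probe set 1421892_at, chromosome 8) sialylates core 1 O-glycans and the gangliosides GM1 and GD1b. It ran from 8.46 to 9.85 in gastrocnemius, with a median of 9.42, and from 4.45 to 8.99 in heart, with a median of 8.5. The tissues overlapped, yet heart was the lower in 12 of 12 animals, and the 2 lowest heart values, 4.45 and 6.23, were those of the arrays that stood apart. The difference was -1.40 ± 0.34 (log2, SE; adjusted p = 0.0033 by limma) with them and -0.91 ± 0.12 without (adjusted p = 6.8e-06), which moves the fold from 2.64 to 1.88.

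St3gal3 (probe set 1450406_a_at, chromosome 4) sialylates N-glycans. Its range was 9.98 to 11.1 in gastrocnemius, with a median of 10.5, and 6.33 to 10.2 in heart, with a median of 9.61. Heart was lower in 11 of 12 animals, by -1.18 ± 0.30 (log2, SE; adjusted p = 0.0053 by limma), and by -0.73 ± 0.13 without the 2 heart arrays (adjusted p = 1.5e-04). Its second probe set, lower by -0.46 ± 0.36, was not called (adjusted p = 0.37 by limma).

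St6galnac4 (probe set 1418074_at, chromosome 2) adds the second sialic acid of the disialyl core 1 O-glycan. It ran from 6.66 to 7.59 in gastrocnemius, with a median of 6.98, and from 5.43 to 6.77 in heart, with a median of 6.42. Heart was lower in 12 of 12 animals, the difference being -0.72 ± 0.14 (log2, SE; adjusted p = 4.3e-04 by limma) and -0.65 ± 0.09 without the 2 heart arrays (adjusted p = 9.7e-06). Its second probe set stood at -0.60 ± 0.27 (adjusted p = 0.101 by limma), and was called without the 2 heart arrays (-0.68 ± 0.22, adjusted p = 0.014). St6galnac6, whose gene follows that of St6galnac4 directly on the same strand of chromosome 2, stood at -0.26 ± 0.32 (adjusted p = 0.58 by limma) and at 0.18 ± 0.18 without the 2 heart arrays (adjusted p = 0.43).

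St3gal5 (probe set 1449198_a_at, chromosome 6) is GM3 synthase, which turns lactosylceramide into the first ganglioside of the series. It ran from 9.86 to 11.6 in gastrocnemius, with a median of 10.6, and from 7.67 to 10.6 in heart, with a median of 10.1. Heart was lower in 10 of 12 animals, by -0.81 ± 0.25 (log2, SE; adjusted p = 0.017 by limma), and by -0.51 ± 0.14 without the 2 heart arrays (adjusted p = 0.0043), a fold of 1.75 against 1.43. Without the 4 animals of larger Gapdh difference it was -0.80, near the value on all arrays, with an adjusted p of 0.096 by limma. Without those animals and the 2 arrays it was -0.34, with an adjusted p of 0.12. The call was thus not kept with fewer animals.

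St3gal4 (probe set 1425668_a_at, chromosome 9) ran from 2.36 to 4.65 in gastrocnemius, where 12 of 12 arrays lay below the level of 4.66 used as the limit for dim probe sets, and from 3.2 to 6.03 in heart, where 6 of 12 lay above the corresponding 4.78. Heart was higher in 10 of 12 animals. Since St3gal4 entered the test only through heart, its call does not weigh as those of the other genes, and its fitted difference is set against values at the dim end of the array. That difference was 0.82 ± 0.30 (log2, SE; adjusted p = 0.047 by limma), and 0.93 ± 0.26 without the 2 heart arrays (adjusted p = 0.0059). The call was close to the threshold: leaving out any of 16 of the 24 arrays moved the adjusted p above 0.05, up to 0.099, while the difference stayed between 0.62 and 0.96.

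For the other 4 genes the difference was not called on all arrays. St3gal1 stood at -0.48 ± 0.27 (log2, SE; adjusted p = 0.20 by limma), lower in heart in 10 of 12 animals, and was called lower without the 2 heart arrays (-0.58 ± 0.20, adjusted p = 0.021). Of these arrays, Cmah KO replicate 3 had the highest St3gal1 value of all 24, at 8.64. The second St3gal1 probe set was called on all arrays, at -0.94 ± 0.25 (adjusted p = 0.0066 by limma). St6galnac2, which sialylates core O-glycans, was higher in heart in 11 of 12 animals, by 0.33 ± 0.14 (adjusted p = 0.08 by limma), and was called without the 2 heart arrays (0.33 ± 0.10, adjusted p = 0.0095). St6gal1, which makes the alpha2,6-sialylated N-glycans bound by CD22, differed by -0.18 ± 0.31 (adjusted p = 0.71 by limma). Its heart values were 7.88 to 8.36 on 11 arrays and 4.33 on Cmah KO replicate 3. Without the 2 heart arrays it stood at 0.15 ± 0.16, with a 95% interval of -0.18 to 0.47.

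In WT gastrocnemius St6gal1 was at 9.0, 7.56 and 6.90. The array at 9.0 was the highest of the 24 and also had the highest summed intensity of 6 B cell markers, 5792, against 299.2 to 1215 on the other 11 gastrocnemius arrays. In heart the same sum was 3768 on Cmah KO replicate 2 and 3987 on Cmah KO mdx replicate 3, where St6gal1 was at 8.18 and 8.26, within the range of the other heart arrays. B cells are rich in St6gal1, and their part in these values was not tested.

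Of the probe sets that did not lead their gene, 5 were called lower in heart (1 each of St3gal1, St3gal2 and St3gal5, and 2 of St3gal6). One further tested probe set of St3gal6, at 0.20 ± 0.19 (log2, SE), was not called (adjusted p = 0.46 by limma), nor was one of St3gal2, at -0.29 ± 0.25 (adjusted p = 0.42). Without the 2 heart arrays that of St3gal2, tested through gastrocnemius alone, was called (-0.55 ± 0.16, adjusted p = 0.0065 by limma). The second St6galnac2 probe set, at 0.42 ± 0.28 on all arrays (adjusted p = 0.28 by limma), stood at 0.80 ± 0.12 without the 2 heart arrays and was then called (adjusted p = 2.0e-05).

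**Figure D2:**
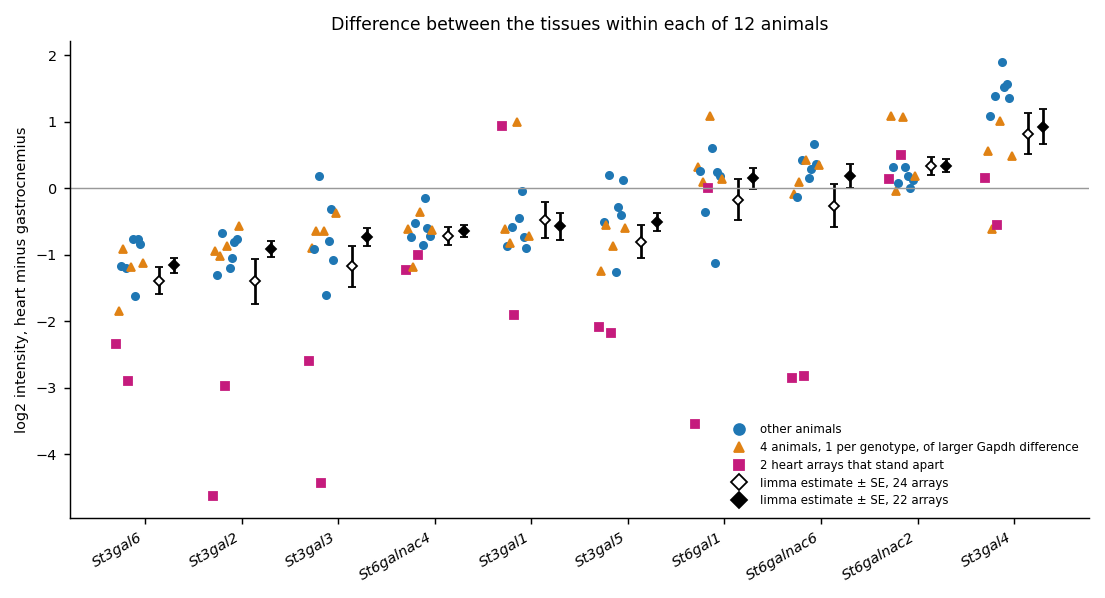
Heart minus gastrocnemius log2 intensity (vertical axis) of the 10 genes in each of the 12 animals, with the limma estimate ± SE from all 24 arrays (open diamond) and from 22 arrays (filled diamond). St3gal6, St3gal2 and St6galnac4 lie below 0 in 12 of 12 animals, and the animals of the 2 heart arrays that stand apart (squares) give the lowest value for 8 of the genes, all but St6galnac2 and St3gal4.

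In WT alone, with 3 animals, 0 of 20 member probe sets were called between the tissues (4 had an unadjusted p below 0.05), against a background of 6.75%. St3gal6 stood at -1.19 ± 0.40 (log2, SE; adjusted p = 0.085 by limma) and St3gal4 at 1.47 ± 0.60 (adjusted p = 0.19). These WT values do not involve the 2 heart arrays, but the shared estimate of spread does. Without those arrays the same differences carried SEs of 0.21 and 0.47, and 10 of 20 probe sets were called, for 7 genes, against a background of 27.8%: St3gal2, St3gal3, St3gal5, St3gal6 and St6galnac4 were lower and St3gal4 and St6galnac2 higher in WT heart, St3gal4 again tested through heart alone.

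The pattern over the 24 arrays was compared with that of about 12607 other genes, as a description, for the 6 genes called between the tissues. The closest genes were Pheta2 and Pcolce for St6galnac4 (Pearson r = 0.895 and 0.89), Rabgef1 and Atp8a1 for St3gal2 (0.978 and 0.973), 1700088E04Rik and Fbln1 for St3gal4 (0.912 and 0.896), Dnajc27 and Smtnl2 for St3gal6 (0.943 and 0.94), Adal and Usp9x for St3gal5 (0.918 and 0.909) and Fem1a and Mief2 for St3gal3 (0.958 and 0.941). The arrays share the tissue difference, and the 2 heart arrays that stood apart carry much of some of these values: over the other 22 arrays r fell to 0.784 for Adal and 0.83 for Mief2, and was 0.931 for Dnajc27.

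**Figure D3:**
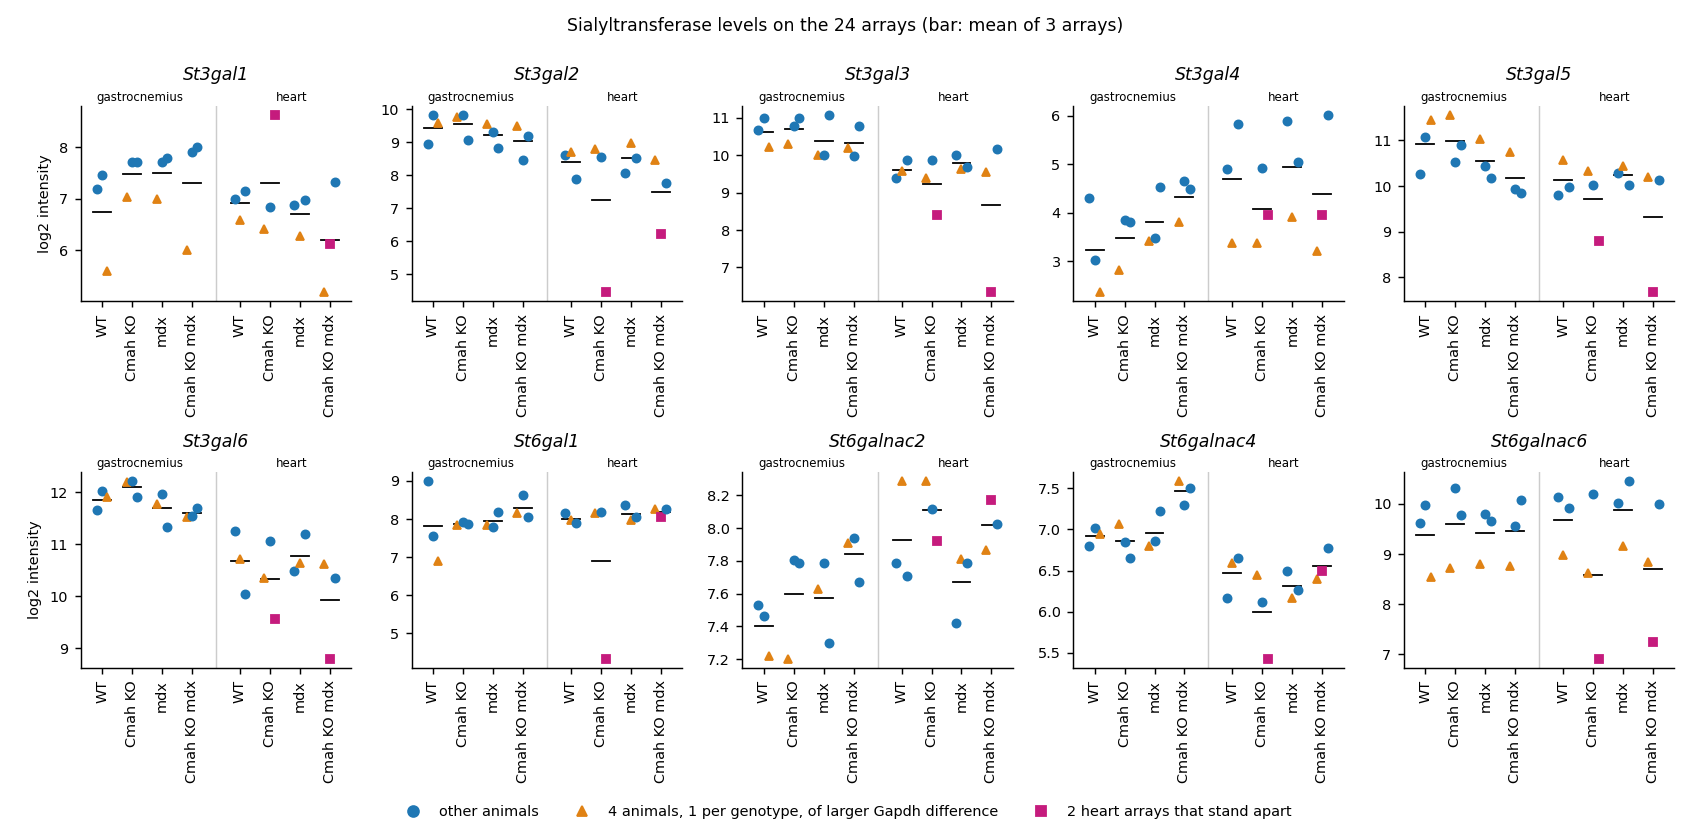
Log2 intensity of the 10 genes on each of the 24 arrays, by tissue and genotype, with the mean of 3 arrays as a bar. The vertical scale differs between panels; triangles are the 4 animals of larger Gapdh difference and squares the 2 heart arrays that stand apart, at 4.45 and 6.23 for St3gal2 and at 6.92 and 7.25 for St6galnac6.

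Dystrophin loss in gastrocnemius was examined next. None of the 19 member probe sets tested there passed the threshold in limma, and 0 had an unadjusted p below 0.05 for the mean of the comparisons of mdx with WT and of Cmah KO mdx with Cmah KO. On the same arrays 0.857% of 29518 probe sets were called. Of 9 genes, 4 stood above 0, the median over the 9 was -0.05 beside -0.01 over all probe sets, and the values ran from -0.60 to 0.32, with 95% intervals between -1.24 and 1.20. St3gal4 was not tested in gastrocnemius.

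The lowest value was that of St3gal5, the GM3 synthase. Its log2 intensities were 10.3, 11.1 and 11.5 in WT, 11.6, 10.5 and 10.9 in Cmah KO, 11.03, 10.4 and 10.2 in mdx, and 10.7, 9.93 and 9.86 in Cmah KO mdx. The lowest arrays, at 9.93 and 9.86, were of Cmah KO mdx. Its other array, at 10.7, lay above arrays of every other genotype, so that the genotypes overlapped. The difference was -0.60 ± 0.29 (log2, SE; adjusted p = 0.54 by limma), and over the alternatives the adjusted p ran from 0.084, with the Gapdh set of the animal as a block, to 1.00. St3gal5 was at 10.7 to 11.6 in the 4 animals of larger Gapdh difference and at 9.86 to 11.1 in the other 8. The second St3gal5 probe set reached an unadjusted p of 0.049 between Cmah KO mdx and Cmah KO, at -0.72 ± 0.33 (adjusted p = 0.64 by limma).

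St6galnac4 had the highest value. It was at 6.8, 7.02 and 6.95 in WT, 7.07, 6.85 and 6.66 in Cmah KO, 6.8, 6.86 and 7.22 in mdx, and 7.59, 7.3 and 7.5 in Cmah KO mdx. On the second St6galnac4 probe set Cmah KO mdx, at 6.615 to 7.879, overlapped WT (5.697 to 7.454), Cmah KO (6.688 to 7.087) and mdx (5.535 to 7.723). On the main probe set the 3 Cmah KO mdx arrays were the highest of the 12. The share of all probe sets that separate in this way is not given here. Against Cmah KO the difference was 0.60 ± 0.25 (log2, SE; unadjusted p = 0.03, adjusted p = 0.56 by limma), against mdx 0.50 ± 0.25 (adjusted p = 1.00), and neither passed the threshold.

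The separate comparisons gave the same count. Between mdx and WT gastrocnemius, 0 of 19 member probe sets were called, against 0.0169% of all, and 0 had an unadjusted p below 0.05. Between Cmah KO mdx and Cmah KO, 0 of 19 were called, against 0.112% of all, and 2 had an unadjusted p below 0.05.

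In heart, 0 of 19 member probe sets were called for dystrophin loss in limma, and 0 had an unadjusted p below 0.05, where 0% of 29421 probe sets were called. The values of the 10 genes ran from -0.65 for St3gal1 to 0.71 for St6gal1. Without the 2 heart arrays they ran from -0.29 to 0.36, again with 0 called (0% of all). Between mdx and WT, 0 of 19 were called (0% of all) and the values ran from -0.25 to 0.25. Between Cmah KO mdx and Cmah KO, 0 of 19 were called (0% of all), and in both counts 0 had an unadjusted p below 0.05. St6gal1 stood at 1.30 ± 0.81 (log2, SE) there, a value that includes the 4.33 on Cmah KO replicate 3.

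The difference of the dystrophin effect between the tissues was not called for any of 20 member probe sets, and 0 had an unadjusted p below 0.05, against 0.48% of 31070 called. St3gal5 stood at 0.47 ± 0.49 (log2, SE; adjusted p = 0.91 by limma), and at 0.63 ± 0.27 without the 2 heart arrays (unadjusted p = 0.034, adjusted p = 0.26). Without those arrays 3 of 20 had an unadjusted p below 0.05 and 0 were called, against 3.38% of all.

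Loss of Cmah left the same result. In gastrocnemius 0 of 19 member probe sets were called for the mean over both Dmd genotypes (0.00339% of all called), for Cmah KO against WT (0% of all) and for Cmah KO mdx against mdx (0.00339% of all), and 0 had an unadjusted p below 0.05 in each (limma). The values of the 9 genes ran from -0.15 to 0.27, with 95% intervals between -0.79 and 1.19. For the interaction of Cmah and dystrophin loss, 0 of 19 were called and 0 had an unadjusted p below 0.05, against 0% of all. The largest interaction was that of St3gal1, at -0.93 ± 0.83 (log2, SE).

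In heart the values for Cmah loss were mostly below 0 and rested on the 2 arrays that stood apart, both of which are Cmah-deficient. Of the 10 genes 9 were below 0, with a median of -0.59, beside a median of -0.27 over all probe sets, of which 32.1% were above 0. Under quantile normalization that median over all probe sets was -0.14. St6galnac6 stood at -1.14 ± 0.59 and St3gal2 at -1.09 ± 0.69 (log2, SE; adjusted p = 0.62 for both by limma). Without the 2 arrays St6galnac6 stood at -0.36 ± 0.43 and St3gal2 at -0.07 ± 0.27, the median of the 10 genes was -0.04, and 4 of 10 were above 0, with 0 member probe sets called against 0.00347% of all. For the mean over both Dmd genotypes, for Cmah KO against WT, for Cmah KO mdx against mdx and for the interaction, 0 of 19 member probe sets were called, with 0 at an unadjusted p below 0.05, and 0% of all were called in each. The difference of the Cmah effect between the tissues was called for 0 of 20 (0% of all), with 0 at an unadjusted p below 0.05; St6galnac6 had its largest value, -1.27 ± 0.64 (log2, SE; adjusted p = 0.61 by limma).

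**Figure D4:**
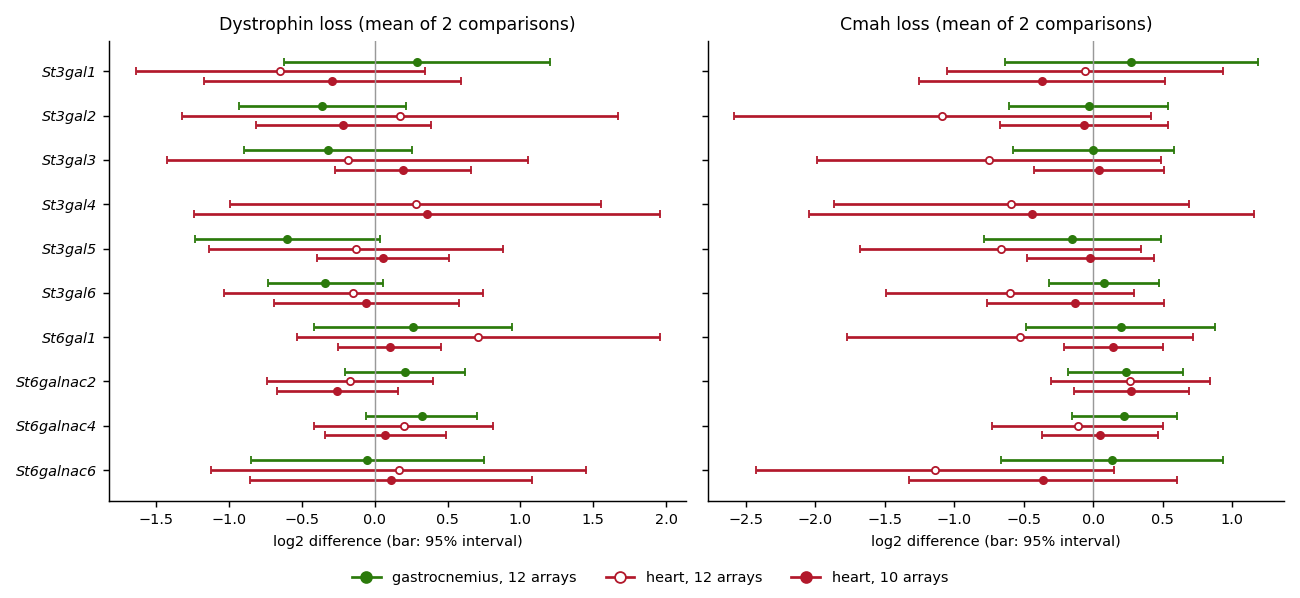
Log2 difference with dystrophin loss (left) and with Cmah loss (right) for the 10 genes, with 95% intervals from limma, in gastrocnemius (12 arrays) and in heart with all 12 arrays or without the 2 that stand apart. St3gal4 has no gastrocnemius value; the intervals of all genes span 0, and the heart values for Cmah loss move towards 0 without the 2 arrays for 8 of the 10 genes.

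The other genes of sialic acid biology were read from lists of the pathway. Of 8 further sialyltransferases tested between the tissues, 2 were called lower in heart and 2 higher, beside 28.1% of all 31070 probe sets called. St8sia5, which builds the longer sialic acid chains of gangliosides, was at 6.14 to 7.53 in gastrocnemius and at 3.16 to 4.66 in heart, so that the tissues did not overlap. All 12 heart values lay below the limit for dim probe sets, so the gene was tested through gastrocnemius alone and its fitted difference (-3.20 ± 0.19, log2, SE; adjusted p = 1.6e-11 by limma) is set against dim values. St8sia6 was higher by 1.08 ± 0.22 (adjusted p = 6.4e-04 by limma). St8sia2 stood at -1.19 ± 0.24 as a mean over the genotypes (adjusted p = 7.2e-04 by limma), but at 0.37 ± 0.49 in WT (adjusted p = 0.80). In dystrophin-positive mice its gastrocnemius values (2.58 to 3.83) and heart values (3.16 to 4.93) overlapped, and heart was below gastrocnemius in the dystrophin-deficient mice. In gastrocnemius St8sia2 passed the filter on dim probe sets through dystrophin-deficient arrays alone, so its call between the tissues gives no support of its own. The St8sia2 call was lost without the 4 animals of larger Gapdh difference (-0.98, adjusted p = 0.064). St6galnac3 stood at 0.86 ± 0.30 (adjusted p = 0.037 by limma), a call lost under quantile normalization (0.70, adjusted p = 0.18) and on leaving out any of 15 arrays.

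St8sia2 makes the polysialic acid carried by Ncam1 in developing and regenerating muscle. It was the 1 of 7 further sialyltransferases tested in gastrocnemius that was called with dystrophin loss, beside 0.857% of all probe sets. In gastrocnemius it was at 2.58 to 3.54 in WT, 3.06 to 3.83 in Cmah KO, 4.4 to 6.5 in mdx and 6.11 to 7.08 in Cmah KO mdx. All 6 dystrophin-deficient arrays were thus above all 6 others, whose values lay below the limit for dim probe sets, as did the lowest mdx array. The gene thus passed the filter through dystrophin-deficient arrays alone, and its fitted rise is set against dim values. The fitted rise was 2.88 ± 0.36 (log2 ± SE, adjusted p = 0.0057 by limma). Since the filter drew on the arrays where St8sia2 was high, this call gives no support of its own. In heart St8sia2 was at 2.61 to 4.93 over all genotypes. The difference of the dystrophin effect between the tissues, which has the same limit, was -3.21 ± 0.49 (adjusted p = 0.0025 by limma). It lost its call without the 4 animals of larger Gapdh difference (-3.34, adjusted p = 0.16) and without these and the 2 heart arrays (-3.25, adjusted p = 0.058). The markers of regenerating fibres rose on the same arrays, 4 of 7 being called, and their summed intensity was 1428 to 3626 in dystrophin-positive and 5025 to 9915 in dystrophin-deficient gastrocnemius. Their part in the St8sia2 result was not tested.

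Between the tissues 28.1% of all 31070 probe sets were called, and the counts here stand beside that share. Of 9 genes that supply or break down the donor, 3 were called lower in heart and 0 higher. Npl, the lyase that breaks down free sialic acid, stood at -1.40 ± 0.22, Nans, which forms sialic acid 9-phosphate, at -1.11 ± 0.24, and Nanp, its phosphatase, at -0.97 ± 0.19 (log2, SE; adjusted p = 4.2e-05, 0.0015 and 5.4e-04 by limma). With dystrophin loss in gastrocnemius 0 of 9 were called; Renbp, at 1.05 ± 0.26, had the smallest p (adjusted p = 0.11 by limma). Of 4 genes for sialidases and their partner protein Ctsa, 1 was called between the tissues: Neu2, the cytosolic sialidase, was at 7.51 to 8.75 in gastrocnemius and 2.24 to 4.53 in heart (fitted difference -5.37 ± 0.22, log2, SE; adjusted p = 4.9e-14 by limma). Its heart values, too, all lay below the limit for dim probe sets, so it was tested through gastrocnemius alone. None of the 4 was called with dystrophin loss; Ctsa had the smallest p, at 0.93 ± 0.46 (adjusted p = 0.55 by limma).

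Enzymes that build the acceptors moved in both directions between the tissues, where 28.1% of all probe sets were called. Of 9 N-glycan genes, 3 were called higher in heart and 0 lower, led by Mgat5, the branching enzyme, at 1.71 ± 0.26 (log2, SE; adjusted p = 2.1e-05 by limma), with B4galt4 at 0.94 ± 0.28 and Mgat4a at 0.79 ± 0.28. Of 5 ganglioside genes, the lactosylceramide synthase gene B4galt6 was called higher, at 1.00 ± 0.34, and the other such gene, B4galt5, lower, at -0.81 ± 0.24. Of 8 O-glycan genes 1 was called, Galnt2, at -0.95 ± 0.25. Under quantile normalization B4galt4, Mgat4a and B4galt6 missed the threshold (adjusted p = 0.052, 0.12 and 0.094 by limma), B4galt4, B4galt5, Mgat4a and B4galt6 missed it without the 4 animals of larger Gapdh difference (0.30, 0.068, 0.26 and 0.30), and leaving out single arrays ended the Mgat4a call for 14 and the B4galt6 call for 11 of the 24. With dystrophin loss in gastrocnemius 0 of these 22 genes were called, and the smallest p were those of B4galt6 (1.10 ± 0.33) and Ugcg (0.77 ± 0.30), with adjusted p = 0.20 and 0.38 by limma.

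Of 7 genes for lectins that bind sialic acid, Selp, the endothelial and platelet selectin, was called lower in heart (-1.71 ± 0.20, log2 ± SE, adjusted p = 6.1e-07 by limma). Between the tissues 28.1% of all probe sets were called. With dystrophin loss in gastrocnemius 0 of 7 were called; Selp stood at 1.25 ± 0.27 and Siglec1, a macrophage lectin, at 1.21 ± 0.34 (adjusted p = 0.065 and 0.16 by limma), the latter below the limit for dim probe sets on all 6 dystrophin-positive arrays. Of 11 macrophage markers 11 were above 0 in the same comparison, with a median of 1.39 and 0 called, and the summed intensity of the 12 was 7476 to 15560 in dystrophin-positive and 14890 to 29740 in dystrophin-deficient arrays. Their part in the lectin values was not tested.

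**Figure D5:**
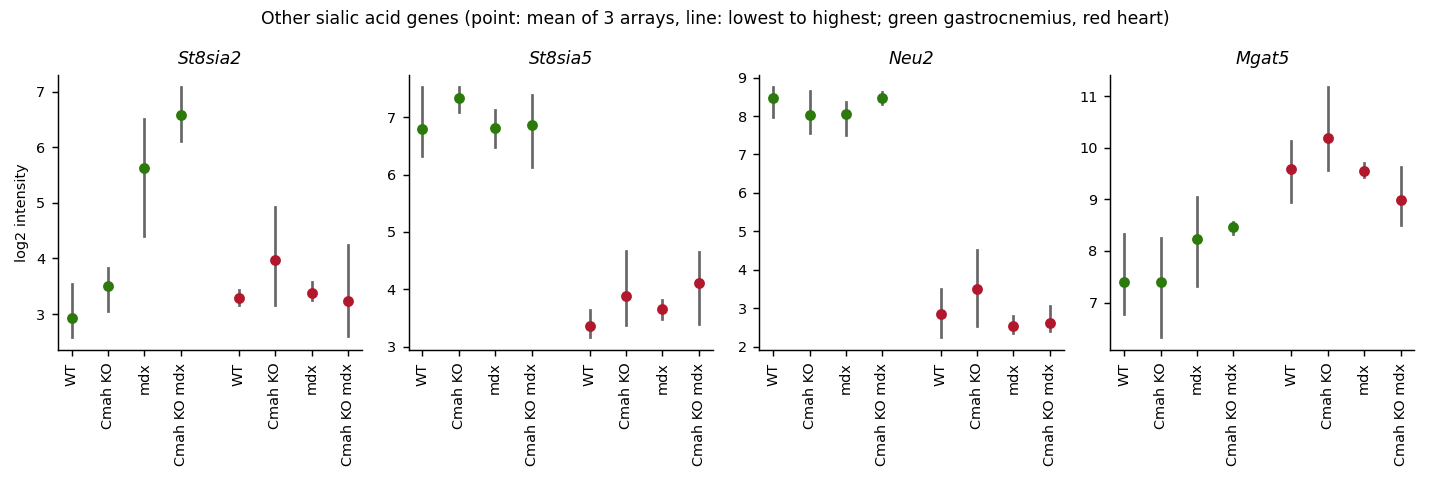
Mean log2 intensity of 3 arrays, with the lowest and highest, for St8sia2, St8sia5, Neu2 and Mgat5 in each genotype of gastrocnemius (green) and heart (red). St8sia2 is at 4.4 to 7.08 in mdx and Cmah KO mdx gastrocnemius against 2.58 to 3.83 in the other gastrocnemius groups; St8sia5 and Neu2 are lower and Mgat5 higher in heart.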

How the data were processed

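Whole gastrocnemius and heart of 12 mice were measured on 24 arrays (3 per genotype and tissue), grouped by title and matched between tissues by the animal number in the labels. The authors deposited 1 table of linear intensities for 45101 probe sets; RMA and GCOS are named in the submitters' processing notes, with no version or setting, so the RMA background correction and summary were taken as they are. Array medians were 41.87 to 50.68. The number of arrays in a group and the spread between them, which the 2 heart arrays that stood apart widen, set the precision. Intensities were turned into log2 values here, 64 control probe sets were left out, and within a tissue a probe set was tested if at least 3 of 12 arrays lay above the 40th percentile (log2 4.656 in gastrocnemius and 4.782 in heart). Names came from the array annotation, updated by gene number: 34945 probe sets had a single symbol, 932 several and 9160 none. Of the 22 member probe sets, 19 were tested in each tissue and 20 in the fit of both tissues. Of the 152 list genes 140 were on the array.

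Tests used limma 3.58.1 in R 4.3.3 (lmFit and eBayes, two-sided, Benjamini-Hochberg over all probe sets tested, threshold 0.05). The 4 groups of a tissue shared 1 fit, and the tissues were compared in a fit of 8 groups with the animal as a random block (duplicateCorrelation, 0.217). Only the within-tissue fit was checked on simulated data, with independent noise and shifts larger than the differences of the members. The fit of both tissues with its animal block was not checked in this way. Figures used matplotlib 3.10.9. The labels do not say that animals of a group were independent litters. The p-values set each difference against the spread between arrays within groups, which holds array quality as well as the animals.

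The genes, lists and tests were chosen with earlier results of these data known. All 10 genes were named by rule, read from the probe set of highest mean. Of the other lists, up to 4 genes with the largest change among those called were named, or up to 2 with the smallest p, with Dmd and Cmah, and for likeness the 2 genes of highest correlation. Levels of different probe sets were not compared.

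Replicate numbers did not pair the arrays: within a tissue, the deviations of same-numbered arrays correlated between -0.58 and 0.65. No 2 arrays were identical. The marker lists held skeletal fibre, cardiomyocyte, regenerating fibre, macrophage, endothelial, fibroblast, B cell, Schwann cell, erythroid and adipocyte genes. Alternatives covered the filter, quantile normalization, an offset of 16, eBayes with trend, array weights, blocks, the probe set used and single arrays left out; 4 settings for the Gapdh sets were chosen after seeing the data.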

Additional observations from a re-analysis of the deposited data

How the results depend on the processing

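The count of member probe sets called stayed within 1.5 times its value in the results under every setting tried for every comparison but 1. In WT alone, where 0 were called between the tissues, 1 was called under quantile normalization, 8 with array weights, 10 without the 2 heart arrays that stood apart, and 4 without these and the 4 animals of larger Gapdh difference. For heart against gastrocnemius over all genotypes the count of 11 ran from 10 to 15 on leaving out single arrays, 15 without Cmah KO replicate 3, and was 0 in each such fit of the other 17 comparisons. The replicate block left the count of members called within each tissue at 0. Of 4701 values of single genes under the alternatives, 4466 kept their side of the threshold, those not called moving by no more than their SE. A further 123 that were not called moved by more, 86 fell short of the threshold and 26 newly passed it. All 848 values of called results kept their sign, whereas 293 of 3853 values that were not called changed sign. St3gal4 missed the threshold with no filter on dim probe sets (adjusted p = 0.075), under quantile normalization (0.19), with the offset (0.064) and with no animal block (0.11). Dim signal limits St3gal4, which lay below the limit for dim probe sets on all gastrocnemius arrays. Over all probe sets, the count called for dystrophin loss in gastrocnemius was 253 and ran from 70 to 396 on leaving out single arrays, with 177 in the replicate block, 860 with array weights and 1055 with the Gapdh sets as a block. Between the tissues it was 8736, and 16274 with array weights and 15717 without the 2 heart arrays. Of the 5 calls for mdx against WT 80% were higher, and of 8 under quantile normalization 62.5%.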

Other observations

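Of the marker lists not described above, 3 of 8 endothelial markers were called higher in heart and 5 of 8 fibroblast markers lower; of 4 Schwann cell and nerve markers 4 were lower, and of 5 adipocyte markers 4 were lower and 1 higher. Of 5 B cell markers 0 were called between the tissues (limma), and of 2 erythroid markers 1 was higher in heart. Of the 7 regenerating fibre markers 7 were lower in heart, and of 11 macrophage markers 2. Only 3 or 4 of the 7 regenerating fibre markers had a mean above the limit for dim probe sets in each heart group. These counts stand beside 28.1% of all 31070 probe sets called between the tissues. With dystrophin loss in gastrocnemius, 0 of 8 endothelial, 0 of 8 fibroblast, 0 of 3 B cell, 0 of 4 Schwann cell, 0 of 2 erythroid and 0 of 5 adipocyte markers were called; the 8 fibroblast markers were all above 0, with a median of 0.52, and the 5 adipocyte markers all below, with a median of -0.88.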
